A study of Mus musculus with 8 samples.

Results

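The genes described here are the secreted ligands of the vascular endothelial growth factor (VEGF) and angiopoietin families, with the VEGF receptor Flt1 and the neuropilin co-receptors Nrp1 and Nrp2. They were picked out by gene symbol, and number 10 of the 55367 genes in the count table: Vegfa, Vegfb, Vegfc, Vegfd, Pgf, Flt1, Nrp1, Nrp2, Angpt1 and Angpt2. All 10 had counts in every library. A gene was tested where 3 or more of the 8 libraries held at least 10 of its counts, which kept 12137 genes, all 10 of these among them.

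The cells were mouse fibroblastic reticular cells (FRC), the podoplanin-positive stromal cells that build the reticular network of the lymph node. A single line, derived from lymph nodes of p53ER/ER C57BL/6 mice, was used, so all libraries share that genotype and that origin. It was cultured for 4 days in 1 of 4 media, with 2 libraries each. In the vehicle group the cells received RPMI with water, and in the LA group RPMI with 15 mM lactic acid. CCM was medium conditioned by the FRC themselves, and TCM was medium conditioned by B16.F10 cells, a mouse melanoma line. The design thus asks how FRC transcripts differ after melanoma-conditioned medium (TCM against CCM) and after lactic acid alone (LA against vehicle).

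VEGF ligands act on receptor tyrosine kinases of endothelial cells. Vegfa drives growth and leakiness of blood vessels, Vegfb and Pgf (placental growth factor) bind the receptor Flt1, and Vegfc and Vegfd act through Flt4 on lymphatic vessels. Neuropilins lack kinase activity and hold VEGF ligands or class 3 semaphorins for their partner receptors. Angpt1 activates the endothelial kinase Tek (Tie2) and steadies vessels, whereas Angpt2 binds the same receptor and in many settings counters Angpt1. In the lymph node, FRC ensheath conduits and lie beside the high endothelial and lymphatic vessels, and they are a known source of VEGF.

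Among the 5 VEGF ligands, the stretches just upstream of the gene are shown for 4, which between them hold each kind of response to TCM described below: Vegfd and Vegfb were higher, Vegfc was lower, and Vegfa was not called. Sequences are from RefSeq on GRCm38.p6, 5′ to 3′ on the strand of the gene. Each shows the part of the 250 bases before the annotated start that lies outside the gene, and capitals mark GC boxes (GGGCGG on either strand).
Vegfd, chrX:164373272-164373377, plus strand: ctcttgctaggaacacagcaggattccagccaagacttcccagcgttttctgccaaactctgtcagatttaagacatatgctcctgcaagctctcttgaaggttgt
Vegfb, chr19:6987652-6987901, minus strand: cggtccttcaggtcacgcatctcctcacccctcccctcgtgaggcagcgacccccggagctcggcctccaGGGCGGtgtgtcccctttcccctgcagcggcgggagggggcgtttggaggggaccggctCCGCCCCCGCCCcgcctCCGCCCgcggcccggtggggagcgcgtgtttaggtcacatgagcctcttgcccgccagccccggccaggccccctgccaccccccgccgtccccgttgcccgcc
Vegfc, chr8:54077282-54077531, plus strand: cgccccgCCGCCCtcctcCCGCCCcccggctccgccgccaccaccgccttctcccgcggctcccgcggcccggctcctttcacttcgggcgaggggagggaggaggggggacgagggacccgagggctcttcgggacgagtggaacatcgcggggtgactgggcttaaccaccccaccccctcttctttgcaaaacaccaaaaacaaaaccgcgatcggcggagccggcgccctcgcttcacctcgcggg
Vegfa, chr17:46032378-46032627, minus strand: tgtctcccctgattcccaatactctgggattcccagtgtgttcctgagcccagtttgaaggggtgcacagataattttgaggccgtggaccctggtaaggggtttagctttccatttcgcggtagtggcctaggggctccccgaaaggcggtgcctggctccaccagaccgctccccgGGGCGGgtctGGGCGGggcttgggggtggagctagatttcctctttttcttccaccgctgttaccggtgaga
The 250-base Vegfd window had a G+C content of 42.4%, below the 76.4% of Vegfb, the 71.6% of Vegfc and the 59.2% of Vegfa. It held no GC box, whereas the Vegfb window held 4, the Vegfc window 2 and the Vegfa window 2, and 32.7% of 32851 RefSeq windows of the same length held at least 1. Neither ACGTG (found in 16.6% of windows) nor the AP-1 motif (TGANTCA, in 6.75%) lay in any of these 4 windows, both strands searched. ACGTG was the only form of the hypoxia response core searched for. The form GCGTG was not counted, and the printed Vegfb stretch holds it. A second RefSeq window of Vegfa, inside the gene at chr17:46025164-46025413 and not printed, held 1 ACGTG match and 1 GC box. A match or its lack describes the letters of these windows only. RefSeq windows were matched for 8 of the 10 genes, and Angpt1 and Angpt2 were not among them.

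Libraries held between 8232889 and 14107964 counts in genes (median 10111168.5). The lowest and the highest totals were those of LA libraries 1 and 2. Counts were expressed as CPM (counts scaled to a common library size, after TMM correction), where TMM factors lay between 0.938 and 1.04, and 3 counts, taken as the floor of detection, stood for 0.211 to 0.354 CPM. That floor covers counting error only. The spread between the 2 replicates exceeded counting error in all 4 groups, with a chi-square per degree of freedom of 3.28 for CCM, the lowest, and 19.8 for TCM, the highest. The FRC markers Pdpn (114 to 187 CPM), Vcam1 (136 to 215 CPM) and Pdgfrb (267 to 508 CPM) were present in every library, but Thy1 had only 1 to 16 counts, Ccl19 had 0 or 1 count and Ccl21a had none. Il7 had 5 to 26 counts, Lum 26 to 148 and Col1a2 57 to 178, whereas Col1a1 had 131525 to 244327. All 6 leukocyte markers were at 0 counts throughout. In total 9 of 12 stromal, 5 of 6 mural and 3 of 8 endothelial markers exceeded the floor in every library. As these are bulk libraries, a smaller share of cells expressing a gene and less of its RNA per cell cannot be told apart. The study describes the 2 libraries of a group as biological replicates. They come from 1 cell line and no separate animals are named, so P values measure the spread between these libraries. That spread is pooled over all 4 groups in 1 fit, although the groups differed in it. The P value of a comparison therefore rests also on libraries outside it.

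TCM altered the VEGF and angiopoietin transcripts in both directions. Vegfd and Vegfb were higher in TCM-treated FRC than in CCM-treated FRC, and Vegfc, Nrp1, Angpt1 and Angpt2 were lower, which makes 6 of 10 called. The call requires an adjusted P below 0.05 (edgeR quasi-likelihood test, Benjamini-Hochberg over all 12137 genes) and a log2 fold change (FC) beyond 0.39 in size, and 19.1% of all genes met it, 8.83% as higher and 10.2% as lower. The largest change was that of Angpt1, which fell to 5 and 6 counts with TCM. Vegfa, Pgf, Flt1 and Nrp2 were not called. The median log2 FC of the 10 genes was -0.30, beside 0.00 over all genes tested. Without CCM library 1 or CCM library 2 the calls of Vegfb and Nrp1 were lost, and fewer of all genes were called as well. With scaling by library totals alone the count was 5, where 2690 of all genes were called, beside 2314.

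**Figure D1:**
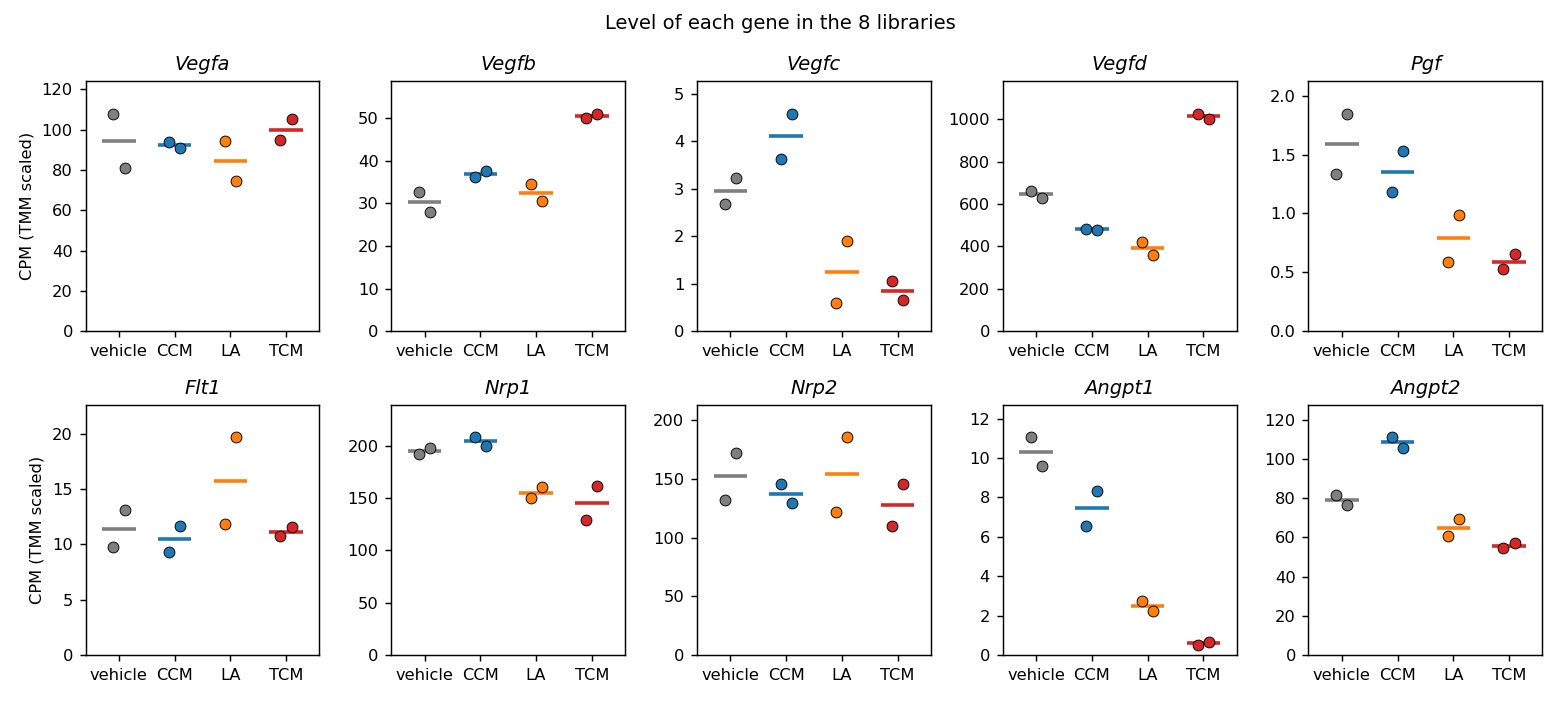
TMM-scaled CPM (linear axes that start at 0) of each of the 10 genes in the 8 libraries, by condition, with 1 point per library and a bar at the group mean of 2 libraries. Vegfd stands highest in both TCM libraries, Angpt1 lowest in TCM and next lowest in LA, and the 8 Vegfa points lie between 74.7 and 108.0 CPM.

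Vegfd, a lymphangiogenic ligand also known as Figf, was the most abundant VEGF transcript in every library. It lies at chrX:164373378-164402650 on the plus strand (GRCm38). Its level was 661 and 631 CPM with vehicle, 485 and 479 CPM with CCM, 423 and 361 CPM with LA, and 1027 and 1001 CPM with TCM. Both TCM libraries were above all 6 others, and both LA libraries were below all 6 others. Against CCM, the TCM level was 2.10-fold higher (log2 FC 1.07 ± 0.106 SE, n = 2 against 2, edgeR adjusted P = 6.3e-05). Against vehicle, TCM was 1.57-fold higher (log2 FC 0.65, edgeR adjusted P = 0.00158), so that the larger fold against CCM goes with a CCM level below that of vehicle. That CCM difference itself (log2 FC -0.42, 95% confidence interval -0.65 to -0.19) did not pass the adjusted threshold (edgeR adjusted P = 0.0783). It did pass in an edgeR fit of the CCM and vehicle libraries alone (adjusted P = 0.000954).

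LA moved Vegfd the opposite way. The gene was 1.65-fold lower with LA than with vehicle (log2 FC -0.72 ± 0.105 SE, n = 2 against 2, edgeR adjusted P = 0.00623). Without vehicle library 1, vehicle library 2 or LA library 2 the adjusted P of that difference was 0.0729, 0.0566 and 0.0710, whereas the direction stayed. The TCM effect minus the LA effect, tested directly, was 1.79 on the log2 scale (95% confidence interval 1.46 to 2.12, edgeR adjusted P = 4.9e-05). It passed in all 18 settings in which it was computed.

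Vegfb, a ligand of Flt1 linked to fatty acid handling and cell survival more than to vessel growth, lies at chr19:6982473-6987651 on the minus strand. It stood at 32.7 and 28.0 CPM with vehicle, 36.0 and 37.6 CPM with CCM, 34.5 and 30.5 CPM with LA, and 49.9 and 51.0 CPM with TCM. The TCM libraries did not overlap with any other, while the vehicle and LA libraries did overlap. The rise over CCM was modest, at 1.37-fold (log2 FC 0.45 ± 0.114 SE, n = 2 against 2, edgeR adjusted P = 0.0158). It was lost with scaling by library totals alone (log2 FC 0.31, edgeR adjusted P = 0.0754) and without CCM library 1 (adjusted P = 0.133) or CCM library 2 (adjusted P = 0.0806). Against vehicle the TCM difference was larger (log2 FC 0.74, edgeR adjusted P = 0.00141). LA against vehicle gave a log2 FC of 0.10 (95% confidence interval -0.17 to 0.36), which was not called.

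Vegfc, the other lymphangiogenic ligand, ran at the bottom of the measured range. It lies at chr8:54077606-54187096 on the plus strand and had 24 and 35 counts with vehicle, 43 and 48 in CCM, 5 and 27 in LA, and 10 and 6 in TCM. In CPM these were 2.68 and 3.23, 3.62 and 4.58, 0.591 and 1.90, and 1.05 and 0.654. The CCM libraries were the highest, and the LA and TCM libraries overlapped. TCM was 4.72-fold lower than CCM (log2 FC -2.24 ± 0.443 SE, n = 2 against 2, edgeR adjusted P = 0.00466). With LA the log2 FC against vehicle was -1.10 ± 0.411 SE and missed the threshold (edgeR adjusted P = 0.233). The 2 LA libraries differed more than 3-fold in CPM, and leaving out 1 library at a time moved this log2 FC between -2.31 and -0.64. Tested directly, the effects of the 2 treatments on Vegfc gave a difference of -1.14 on the log2 scale, which was not called (edgeR adjusted P = 0.304). Leaving out 1 library at a time moved it between -1.60 and 0.07, the latter without LA library 2. Vegfc and Vegfd, which share a receptor, therefore went in opposite directions with TCM.

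Pgf and Vegfa were not called in TCM against CCM. Pgf, at chr12:85166635-85177790 on the minus strand, had 12 and 20 counts with vehicle, 14 and 16 in CCM, 5 and 14 in LA, and 5 and 6 in TCM. Its log2 FC was -1.17 in TCM against CCM (95% confidence interval -2.19 to -0.16, edgeR adjusted P = 0.0949) and -0.94 in LA against vehicle (edgeR adjusted P = 0.309). Against vehicle, TCM was lower (log2 FC -1.43, edgeR adjusted P = 0.0475), a call lost in 11 of 18 other settings.

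Vegfa, the principal angiogenic ligand and a classical target of hypoxia-inducible factor, lies at chr17:46016993-46032369 on the minus strand. Its level was 108.0 and 81.1 CPM with vehicle, 94.0 and 90.9 CPM with CCM, 94.3 and 74.7 CPM with LA, and 94.9 and 105.3 CPM with TCM. The libraries of all 4 conditions overlapped with their neighbours in level. For TCM against CCM the log2 FC was 0.11 (95% confidence interval -0.21 to 0.44, edgeR adjusted P = 0.623), and for LA against vehicle -0.17 (95% confidence interval -0.49 to 0.16, edgeR adjusted P = 0.707). Gene-level counts sum over the splice forms of Vegfa and over the membrane-bound and soluble forms of Flt1.

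Levels of different ligands were compared only as CPM per kb of exon. On that scale Vegfd made up 86.3% ± 1.34 (SD, n = 2) of the summed 5 VEGF ligands with vehicle, 81.1% ± 0.302 with CCM, 79.99% ± 0.0140 with LA and 88.4% ± 0.582 with TCM. Vegfa was 7.07%, 8.74%, 9.65% and 4.91% in the same order, and Vegfb was 6.07%, 9.30%, 9.96% and 6.60%. Vegfc and Pgf each stayed below 1% in every condition. The sum itself was 321 and 300.3 CPM per kb with vehicle, 248 and 246 in CCM, 219.7 and 188 in LA, and 480.3 and 472 in TCM. Thus the ligand pool, as mRNA, was made up largely of Vegfd in all 4 media, and its total was highest in both TCM libraries and lowest in both LA libraries.

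**Figure D2:**
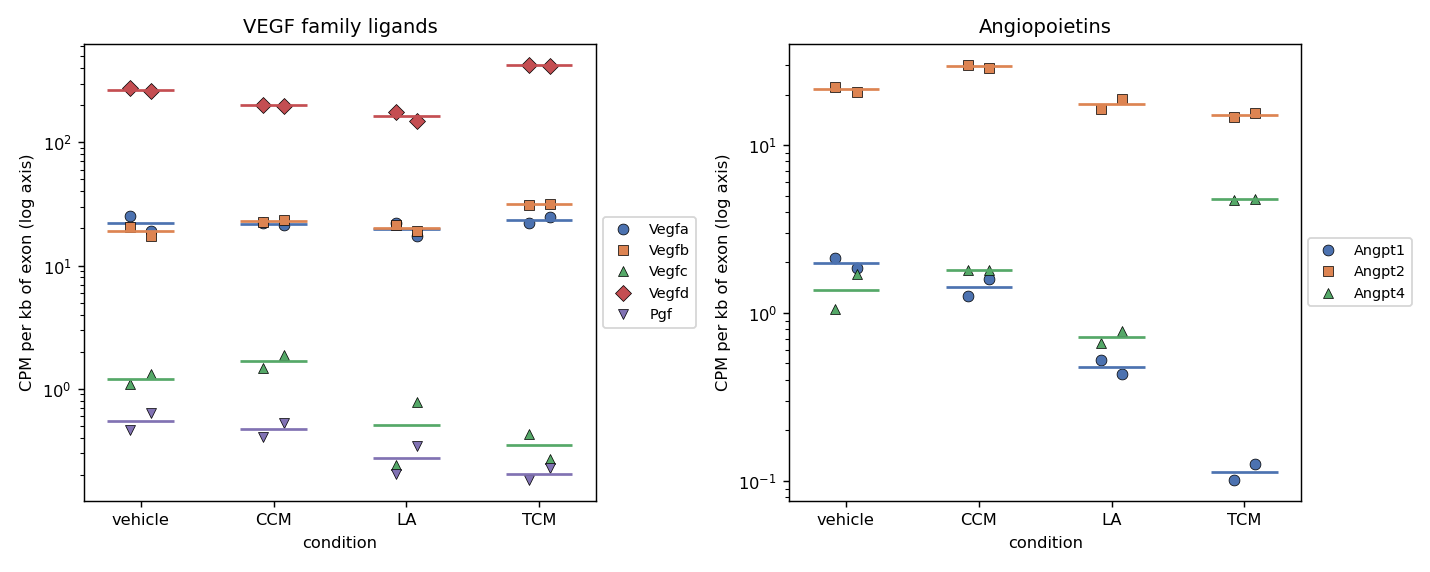
CPM per kb of exon (log axis) of the VEGF ligands and of the angiopoietins in each library, by condition, with a point per library and a bar at the group mean. Vegfd lies above every other VEGF ligand in all 8 libraries, and the gap between Angpt2 and Angpt1 is narrowest with vehicle and widest with TCM.

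Of the receptor and co-receptors, Nrp1 was called and Flt1 and Nrp2 were not. Flt1, a high-affinity VEGF receptor that can also act as a decoy, lies at chr5:147561604-147726011 on the minus strand and stood at 9.71 and 13.1 CPM with vehicle, 9.26 and 11.6 CPM with CCM, 11.8 and 19.7 CPM with LA, and 10.7 and 11.6 CPM with TCM. Its log2 FC was 0.10 in TCM against CCM (95% confidence interval -0.45 to 0.65) and 0.49 ± 0.235 SE in LA against vehicle, and neither was called (edgeR adjusted P = 0.822 and 0.384). LA library 2 was the highest, and the other 7 lay between 9.26 and 13.1 CPM.

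Nrp1, a co-receptor of Vegfa and of semaphorin 3A, lies at chr8:128358604-128503363 on the plus strand. The CPM values were 192 and 197 with vehicle, 208 and 199.99 in CCM, 149.9 and 160.1 in LA, and 129 and 162 in TCM. All 4 LA and TCM libraries were below all 4 vehicle and CCM libraries. TCM was 1.40-fold lower than CCM (log2 FC -0.49 ± 0.112 SE, n = 2 against 2, edgeR adjusted P = 0.0099). This call was lost in a fit of the TCM and CCM libraries alone (adjusted P = 0.0551) and without CCM library 1 or 2 (adjusted P = 0.0837 and 0.0520), and without TCM library 1 the log2 FC was -0.33, inside the fold threshold. LA against vehicle gave a log2 FC of -0.33 (95% confidence interval -0.57 to -0.08), which did not pass (edgeR adjusted P = 0.184).

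Nrp2, which favours Vegfc, Vegfd and semaphorin 3F, lies at chr1:62703285-62818695 on the plus strand and was not called in any comparison. It stood at 132 and 172 CPM with vehicle, 145 and 129.9 CPM with CCM, 122 and 186 CPM with LA, and 110.2 and 146 CPM with TCM, so that all 4 conditions overlapped. The log2 FC was -0.11 for TCM against CCM (95% confidence interval -0.54 to 0.33) and 0.02 for LA against vehicle (-0.41 to 0.45). Per kb of exon, Nrp1 exceeded Nrp2 on average 1.57-fold with vehicle, 1.80-fold with CCM, 1.26-fold with LA and 1.38-fold with TCM. By library the ratio was 1.76 and 1.38 with vehicle, 1.73 and 1.86 in CCM, 1.48 and 1.04 in LA, and 1.41 and 1.35 in TCM. Vehicle overlapped with every other condition and LA with TCM, while both CCM libraries were above all LA and TCM libraries.

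Both angiopoietins were lower with TCM, Angpt1 by the most of the 10 genes. This Tek agonist lies at chr15:42424723-42676977 on the minus strand. It had 99 and 104 counts with vehicle, 78 and 87 in CCM, 23 and 32 in LA, and only 5 and 6 in TCM, which correspond to 11.04 and 9.61 CPM, 6.57 and 8.31 CPM, 2.72 and 2.25 CPM, and 0.526 and 0.654 CPM. No library of 1 condition overlapped with a library of another. TCM was 12.4-fold lower than CCM (log2 FC -3.63 ± 0.316 SE, n = 2 against 2, edgeR adjusted P = 3.5e-05), with a log2 FC of -3.79 to -3.45 over 18 other settings, all of them called. LA was 4.20-fold lower than vehicle (log2 FC -2.07 ± 0.224 SE, n = 2 against 2, edgeR adjusted P = 0.00112), with a range of -2.19 to -1.92, again called in all 18. The TCM effect exceeded the LA effect by -1.56 on the log2 scale (95% confidence interval -2.52 to -0.59, edgeR adjusted P = 0.0452). That difference was close to the threshold: it was lost with DESeq2 (adjusted P = 0.110) and without any 1 of the 8 libraries (adjusted P = 0.0511 to 0.127).

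Angpt2, at chr8:18690263-18741562 on the minus strand, fell with TCM as well, though from a higher level and by less. It stood at 81.5 and 76.6 CPM with vehicle, 111 and 106 CPM with CCM, 60.8 and 69.1 CPM with LA, and 54.3 and 57.3 CPM with TCM. The 4 conditions did not overlap, with CCM highest and TCM lowest. The TCM level was 1.94-fold below CCM (log2 FC -0.96 ± 0.102 SE, n = 2 against 2, edgeR adjusted P = 0.000102) but 1.42-fold below vehicle (log2 FC -0.50, edgeR adjusted P = 0.00641). LA against vehicle gave a log2 FC of -0.28 (95% confidence interval -0.50 to -0.06), which was not called (edgeR adjusted P = 0.221). The difference between the effects was -0.68 (95% confidence interval -0.99 to -0.36, edgeR adjusted P = 0.0118), and without vehicle library 2, CCM library 1 or LA library 2 its adjusted P was 0.0698, 0.0739 and 0.0699.

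Angpt2 lies inside Mcph1, a gene on the opposite strand, and whether the counting used strand is not given in the sources used here. Mcph1 had 346 to 518 counts per library and a log2 FC of -0.02 in TCM against CCM (edgeR adjusted P = 0.953). Transcripts that overlap Nrp1, Nrp2 and Angpt1 (Mir1903, Gm37121, Gm29083 and Gm17473) had at most 4 counts in any library.

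Angpt1 fell by more than Angpt2 in TCM against CCM and in LA against vehicle. In CCM against vehicle Angpt1 was lower (log2 FC -0.47) and Angpt2 higher (0.46), neither called in the fit of all 8 libraries. The ratio of Angpt2 to Angpt1 per kb of exon was lowest with vehicle and highest with TCM. It was 10.4 and 11.2 with vehicle, 23.8 and 18.0 in CCM, 31.6 and 43.2 in LA, and 146 and 124 in TCM. The 4 conditions did not overlap. The TCM ratio rests on the 5 and 6 Angpt1 counts given above. With 2 libraries a group, an exact permutation test of any such single ratio cannot give a P below 0.333.

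**Figure D3:**
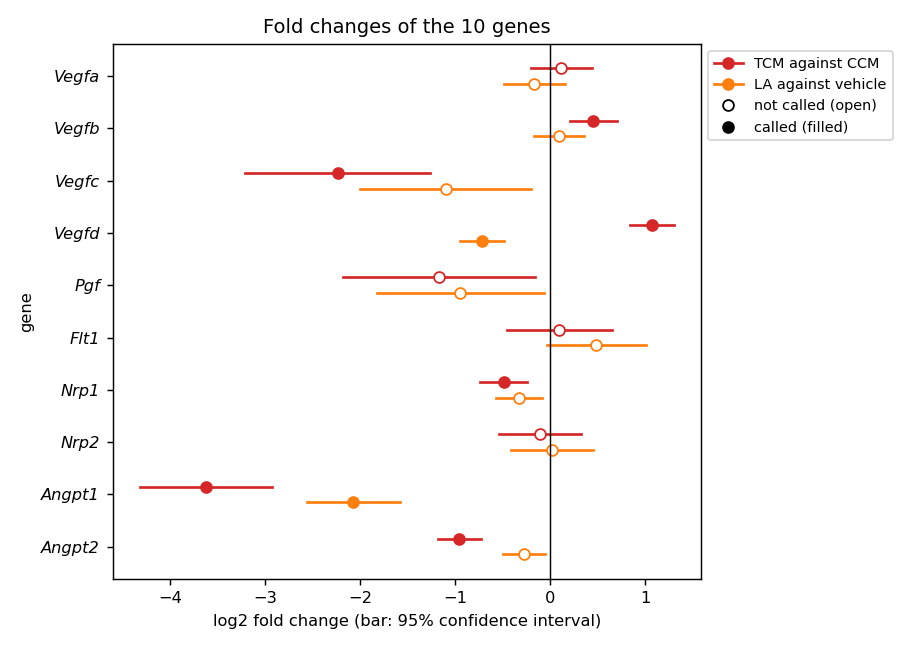
Log2 FC of the 10 genes in TCM against CCM and in LA against vehicle (edgeR, 2 libraries per group), with bars for the 95% confidence interval. Angpt1 lies furthest to the lower side in both comparisons, and Vegfd lies above 0 with TCM (1.07) and below 0 with LA (-0.72).

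In LA against vehicle, 2 of the 10 genes were called, Vegfd and Angpt1, both lower, where 2.55% of all genes were called, 1.31% as higher and 1.24% as lower. A further 4 (Vegfc, Pgf, Nrp1 and Angpt2) were lower at an unadjusted P below 0.05 and failed the correction. The median log2 FC of the 10 genes was -0.30, beside 0.00 over all genes. Without vehicle library 1, vehicle library 2 or LA library 2 the Vegfd call was lost and that of Angpt1 kept, while fewer of all genes were called too. A direct test of TCM effect against LA effect called 3 of the 10 (Vegfd, Angpt1 and Angpt2), against 10.4% of all genes. Without vehicle library 2, CCM library 1 or LA library 2 only the Vegfd difference was called.

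The remaining pairs place each gene in order, and they share libraries with the comparisons above. Between the 2 control media, CCM and vehicle, edgeR called none of the 10 genes (1.30% of all genes), although 4 had an unadjusted P below 0.05 and DESeq2 called 2, Vegfd as lower and Angpt2 as higher in CCM. Without TCM library 1 or TCM library 2 edgeR called 2 as well. Against vehicle, TCM gave 7 calls (17.5% of all genes): Vegfb and Vegfd higher, and Vegfc, Pgf, Nrp1, Angpt1 and Angpt2 lower. Of these, the Pgf call was lost without any 1 of the 8 libraries, Vegfc without vehicle library 1, vehicle library 2 or TCM library 2, Nrp1 without vehicle library 1, vehicle library 2 or TCM library 1, and Angpt2 without vehicle library 1. Against LA, TCM gave 3 calls (16.1% of all genes), with Vegfd 2.59-fold higher, Vegfb 1.56-fold higher and Angpt1 4.08-fold lower. Of these, the Vegfb call was lost without LA library 2. LA against CCM gave 2 (0.626% of all genes), Angpt1 and Angpt2, both lower. Both calls were lost without any 1 of the 4 libraries compared, where fewer of all genes were called too. Over these fits the log2 FC stayed between -1.76 and -1.42 for Angpt1 and between -0.83 and -0.65 for Angpt2.

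In order of level, Angpt1 ran from vehicle through CCM and LA to TCM, and of these steps vehicle to CCM was not called (edgeR adjusted P = 0.310) while CCM to LA (0.0124) and LA to TCM (0.00414) were. Vegfd ran from TCM through vehicle and CCM to LA, with only the first step called. Vegfb ran from TCM through CCM and LA to vehicle, likewise with only the first step called. Angpt2 and Vegfc, both highest in CCM and lowest in TCM, had no called step between neighbours, as had none of Vegfa, Pgf, Flt1, Nrp1 and Nrp2.

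Beside Flt1 and the neuropilins, 4 other receptors and the receptor phosphatase Ptprb were looked up, and of these 5 genes Tek alone was tested. Kdr, the main receptor of Vegfa, had 3 to 13 counts, Flt4 had 1 to 10, Tie1 had 0 to 2 and Ptprb, which acts on Tek, had 2 to 17, and none of these 4 passed the filter. Tek had 22 and 48 counts with vehicle, 37 and 28 in CCM, 17 and 65 in LA, and 9 and 6 in TCM, and was lower in TCM than in CCM (log2 FC -1.84 ± 0.522 SE, n = 2 against 2, edgeR adjusted P = 0.0283). The call was lost without any 1 of the CCM or TCM libraries. In LA against vehicle the Tek log2 FC was -0.00 (95% confidence interval -0.85 to 0.85).

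Angpt4, the third angiopoietin ligand in the mouse, went the other way from Angpt1 and Angpt2. It stood at 2.45 and 3.97 CPM with vehicle, 4.21 and 4.20 CPM with CCM, 1.54 and 1.83 CPM with LA, and 11.1 and 11.1 CPM with TCM. Both TCM libraries were above the rest and both LA libraries below. TCM was 2.63-fold higher than CCM (log2 FC 1.40 ± 0.215 SE, n = 2 against 2, edgeR adjusted P = 0.00102), and LA against vehicle was not called (log2 FC -0.92, edgeR adjusted P = 0.152). The effects differed (log2 2.32, edgeR adjusted P = 0.00212).

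Of 13 class 3 semaphorins, plexins and the neuropilin adaptor Gipc1, all tested, 6 were called in TCM against CCM (19.1% of all genes). The 5 higher ones were the neuropilin ligands Sema3a (log2 FC 1.19), Sema3d (2.17) and Sema3f (1.30), the plexin ligand Sema3e (1.05), and the receptor Plxna1 (0.73), and the lower one was Plxnd1, the receptor of Sema3e (-0.52). Sema3d had no more than 18 counts in any library. The median log2 FC of the 13 was 0.24, beside 0.00 over all genes. In TCM against vehicle 6 were called (17.5% of all genes), 3 higher and 3 lower, with a median log2 FC of 0.04. There Sema3a, Sema3e and Sema3f were again higher. Plxna1 (log2 FC 0.27, edgeR adjusted P = 0.278) and Sema3d (log2 FC 1.12, edgeR adjusted P = 0.178) were not called. In LA against vehicle 1 was called, Plxna4, which was lower (log2 FC -1.76, edgeR adjusted P = 0.0272), a call lost without any 1 of the vehicle or LA libraries. Of 6 genes for the processing of Vegfc and Vegfd, Adamts3 had no counts. edgeR called none of the other 5 in either comparison, with 0 and 1 of them at an unadjusted P below 0.05, and DESeq2 called none.

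A further list held 10 targets of hypoxia-inducible factor other than Vegfa. It was chosen with earlier results of these data known, so its counts are a description and no independent test. Of its genes 9 were tested. All 9 were called in TCM against CCM (19.1% of all genes), 8 as higher, with a median log2 FC of 0.97 beside 0.00 over all genes. Among the higher ones were Adm, which encodes the vasoactive peptide adrenomedullin (3.16), the mitophagy receptor Bnip3 (1.66), the pyruvate dehydrogenase kinase Pdk1 (1.51) and Ldha, lactate dehydrogenase A (0.97). Ndrg1 was lower (-0.69). In TCM against vehicle 7 of the 9 were called (17.5% of all genes), 6 as higher, with a median log2 FC of 0.81. In CCM against vehicle edgeR called 0 of the 9, but 6 had an unadjusted P below 0.05 and the median log2 FC was -0.29. With LA none of the 9 was called by edgeR, 1 had an unadjusted P below 0.05 and DESeq2 called none. The median log2 FC was -0.01. The direct test between the 2 effects called 8 of the 9 (10.4% of all genes), with 7 more positive under TCM. Vegfa, a member of the same class of targets, was not called under TCM, with the values given above.

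**Figure D4:**
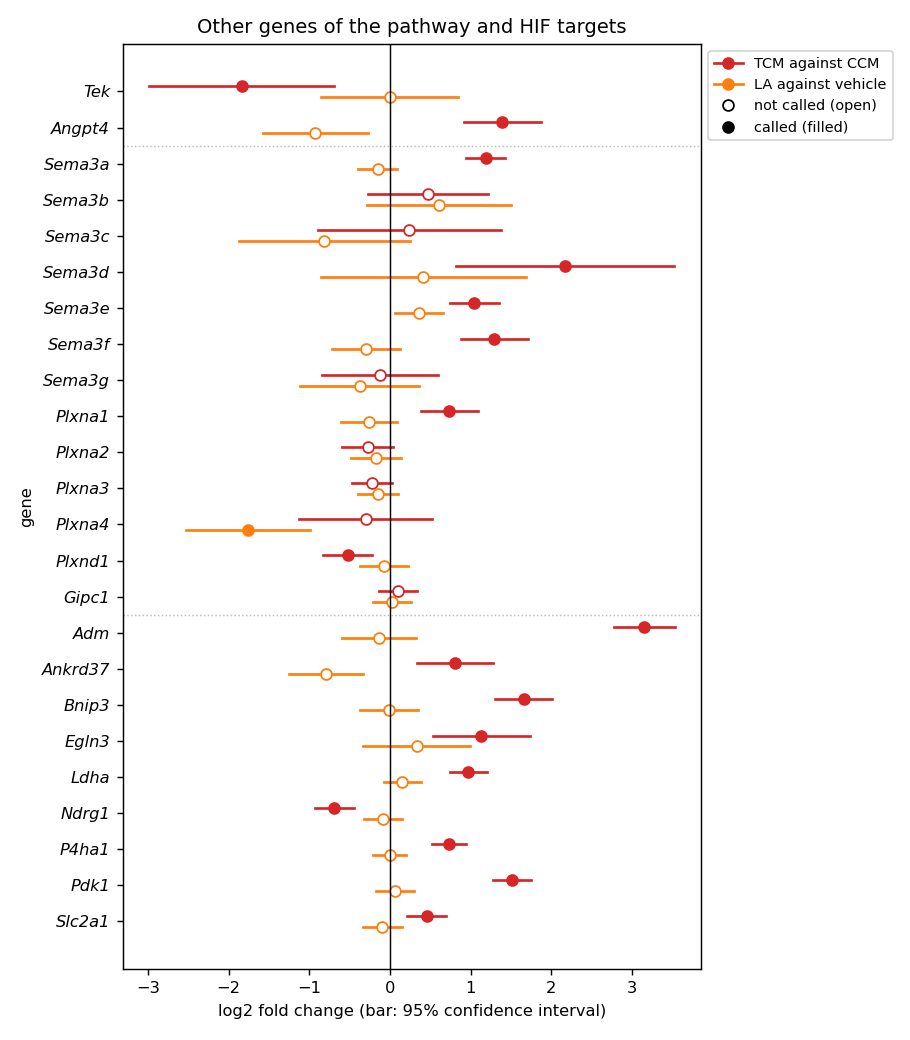
Log2 FC in TCM against CCM and in LA against vehicle for Tek and Angpt4, for semaphorins, plexins and Gipc1, and for hypoxia-inducible factor (HIF) targets, with the 95% confidence interval as a bar and filled points where called. Of the 9 HIF targets 8 lie above 0 with TCM (median 0.97) and the LA points have a median of -0.01.

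Of the 12 stromal markers 9 were tested, and 4 were called in TCM against CCM (19.1% of all genes). Pdpn was higher (log2 FC 0.44), and Pdgfrb (-0.47), Dcn (-0.86) and Lum (-1.78) were lower. In LA against vehicle 0 were called. Markers of other cell types were measured as well. The summed endothelial markers ranged from 39.3 to 47.7 CPM with vehicle, 63.4 to 64.7 with CCM, 52.8 to 68.2 with LA and 48.7 to 51.6 with TCM. Nearly all of this was Emcn (314 to 884 counts). Of the others, Prox1 had 0 counts, Lyve1 and Tie1 0 to 2, Cdh5 1 to 7, Pecam1 4 to 9, Kdr 3 to 13 and Tek 6 to 65. Emcn was higher in CCM than in vehicle (log2 FC 0.64, edgeR adjusted P = 0.0426). Its TCM effect minus its LA effect was -0.89 on the log2 scale (edgeR adjusted P = 0.0104). It was not called in TCM against CCM (log2 FC -0.33) or in LA against vehicle (log2 FC 0.56). Mural markers summed to 4895 to 5624 CPM with vehicle, 5088 to 5092 with CCM, 4462 to 5407 with LA and 6063 to 7062 with TCM. Nearly all of that sum was Acta2, at 7030 and 6030 CPM with TCM, whose log2 FC in TCM against CCM was 0.37 and not called (edgeR adjusted P = 0.0738). The median log2 FC of the 5 mural markers tested was -0.41, and none was called. Their part in the results was not tested. Melanocyte markers, which would report RNA of the melanoma cells, summed to 0.955 to 1.89 CPM over all libraries and were mostly Pmel (10 to 21 counts). Tyr was at 0 counts, and Mlana had 0 or 1 count. Tyrp1 had 6 and 3 counts in the TCM libraries and Dct had 1 and 1, with 0 counts of either gene elsewhere.

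Among all other genes tested, those whose log2 CPM followed a member most closely over the 8 libraries were, by Pearson's r, Slc9a3r2 (0.991), Tmco3 (0.987) and Mroh1 (0.985) for Vegfd, Il33 (0.993), Apobr (0.993) and Enpep (0.988) for Angpt1, and Acap3 (0.979), Srebf1 (0.975) and Tmem198b (0.970) for Angpt2. For Vegfb they were Emp2 (0.987), Gm21680 (0.980) and Secisbp2 (0.978), and for Nrp1 Tex10 (0.974), Gm50387 (0.972) and Rnf115 (0.969). For the low-count ligands they were 1700055D18Rik (0.969), Endod1 (0.969) and Gm15706 (0.968) with Vegfc, and Crlf2 (0.985), Iqank1 (0.980) and Nudt4 (0.970) with Pgf. Each r is among the 3 largest of 12136 over 8 libraries in 4 groups of 2, so it describes a shared order of conditions and carries no test. Between the members themselves, r was highest for Pgf with Vegfc (0.90). It was 0.89 for Vegfc with Angpt2, Pgf with Nrp1, Pgf with Angpt1 and Nrp1 with Angpt2.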

How the data were processed

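Total RNA of the 8 FRC cultures was made into directional poly(A) libraries by the authors. Reads were aligned with STAR 2.7.0a to GRCm38 and counted per gene with featureCounts (Subread 2.0.1), and DESeq2 1.32.0 is named in the submitters' processing notes. The authors deposited unnormalized counts. Another table of theirs held the same counts (100% of values) for 12137 genes. Whether counting used strand is not given in the sources used here.

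The deposited counts were analysed in R 4.3.3 with edgeR 4.0.16 (TMM factors, robust quasi-likelihood test), 1 fit over all 8 libraries, restricted to genes that reached 10 counts in 3 or more libraries. P values were adjusted by Benjamini-Hochberg over all genes tested. SE is the log2 FC divided by the square root of F. CPM per kb used the merged exon length in GENCODE M21. Genes named outside the 10 came from lists by pathway role or, for the genes most alike, from the highest Pearson's r of the members called in any pair of conditions. The members and lists were chosen with earlier results of these data known.

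Alternatives were DESeq2 1.42.0, its size factors, library totals, other count filters and fold thresholds, fits of the compared libraries alone, leaving out each library, and a replicate block. The script was tested on simulated data.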

Additional observations from a re-analysis of the deposited data

Results flagged for a closer look

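For 3 genes the effect of TCM over CCM differed from that of LA over vehicle by a direct test of the difference (edgeR contrast, adjusted over all genes). Vegfd differed by 1.79 on the log2 scale, because it was higher with TCM and lower with LA. Angpt1 differed by -1.56, being lower in both comparisons and by more with TCM. This difference was close to the threshold and was not called by DESeq2 (DESeq2 adjusted P = 0.110). Leaving out 1 library at a time moved it between -1.72 and -1.38. Angpt2 differed by -0.68, with a called fall under TCM and none called under LA. Leaving out 1 library at a time moved the Angpt2 difference between -0.76 and -0.58, and its call was lost in some of these fits. The 2 effects rest on different control media. CCM stood below vehicle for Vegfd and Angpt1 and above it for Angpt2, without a call in the edgeR fit of all 8 libraries. In an edgeR fit of the compared libraries alone, Vegfd (adjusted P = 0.000954) and Angpt2 (adjusted P = 0.000644) were called. Angpt1 was not called in any of 18 other settings. Compared directly, TCM against LA gave a log2 FC of 1.37 for Vegfd (edgeR adjusted P = 2.9e-05) and -2.03 for Angpt1 (edgeR adjusted P = 0.00414), both called, and -0.22 for Angpt2 (edgeR adjusted P = 0.167), which was not.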

How the results depend on the processing

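With a log2 FC beyond 1 required, 3 of the 10 genes were called in TCM against CCM (760 of all genes) and 1 in LA against vehicle (86 of all genes). In the remaining pairs of conditions 6 were called (12 as reported). With at least 10 counts in every library, which leaves Vegfc, Pgf and Angpt1 untested, these counts were 4, 1 and 7. For CCM against vehicle (0 as reported), DESeq2, no filter on low counts and a fit of the compared libraries alone each gave 2, and library totals without TMM gave 1. Over all genes, fits of the compared libraries alone gave 679 calls in CCM against vehicle, beside 158 as reported. In TCM against CCM they gave 1731, beside 2314. Leaving out 1 library at a time gave 4 to 6 calls in TCM against CCM, 1 to 2 in LA against vehicle, 1 to 2 for the difference between both effects (3 as reported), 0 to 2 in CCM against vehicle and 8 to 12 in the remaining pairs. The causes of these shifts were not tested. A fit that leaves a group with 1 library assumes that it varies like the other groups. The number of calls over all genes moved with these fits as well. Over all settings, 1203 values of the 10 genes kept their side of the threshold, 69 lost the call and 23 gained it. The sign turned over in 27 of these values, none of them of a difference that was called. Scaling by library totals moved the median log2 FC of all genes to -0.14 in TCM against CCM, with 24.2% of 2690 calls higher, beside 46.3% of 2314.

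The labels number the libraries 1 and 2 in every group, but libraries of 1 number did not deviate together in each pair of groups. The correlation was 0.353, 0.112 and 0.106 in the 3 pairs among vehicle, LA and TCM, and -0.0406, -0.0813 and -0.242 for CCM with vehicle, LA and TCM. Since not every pair was above 0.1, the libraries are taken to share only a number. With the replicate block, 6, 2 and 2 of the genes were called in TCM against CCM, LA against vehicle and the difference, where the Angpt1 difference was lost (edgeR adjusted P = 0.0537), and 0 in CCM against vehicle. Crossing the CCM numbers in the block, an alternative chosen after seeing the data, gave 6, 2, 3 and 2, with Vegfd and Angpt2 called in CCM against vehicle, and added a call of Nrp1 in LA against CCM. Over all genes the crossed block called 596 in LA against vehicle, beside 310 as reported. It called 457 in CCM against vehicle, beside 158, and 2675 in TCM against CCM, beside 2314. Whether the CCM libraries were numbered in another order was not tested.

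Depth limits Vegfc, Pgf and Angpt1, which had 5 or 6 counts in their lowest libraries, and Kdr, Flt4, Tie1 and Ptprb were too low to test.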
